A study of Mus musculus with 18 samples.

Results

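The Nodal branch of transforming growth factor β signaling was followed through 5 genes. NODAL is its ligand, GDF3 a related ligand, TDGF1 encodes the co-receptor Cripto, and LEFTY1 and LEFTY2 encode the secreted inhibitors of the pathway. Every probe whose target name on the array was one of these genes was taken, which gave 6 of the 45281 probes, 2 for NODAL and 1 for each of the other genes. In ES/PA6 co-cultures LEFTY1 was 2.67-fold lower in presence of FGF2 than in absence of growth factors, while the ligands NODAL and GDF3 differed by 1.10-fold or less. TDGF1 was 1.91-fold higher with FGF2, a difference that passed neither the test of unmatched arrays nor, when arrays of the same replicate experiment were matched, the fold threshold. With BMP4 none of the 5 genes passed the test, and none of them was detected in pure cultures of PA6 cells.

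Nodal is a secreted ligand that binds activin receptors on the cell surface together with a membrane-anchored co-receptor of the EGF-CFC family, such as Cripto. The activated receptors phosphorylate SMAD2 and SMAD3, which enter the nucleus with SMAD4 and bind DNA with partners such as FOXH1. The Lefty genes are among the targets of the pathway, and their products block Nodal and its co-receptor from the outside, closing a feedback loop. In the mouse embryo the pathway acts in the epiblast and in the formation of the primitive streak, and its ligands, co-receptor and inhibitors are expressed by cultured murine ES cells.

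The study asked which genes respond when murine embryonic stem (ES) cells, grown on a monolayer of PA6 stromal cells, are driven toward endothelium by FGF2 or BMP4. The co-cultures were kept for 3 days in serum-free medium to which no growth factor (-GFs), 20 ng/ml FGF2 or 10 ng/ml BMP4 was added, and PA6 mono-cultures received the same 3 media. Each of these 6 groups had 3 biological replicates, and each replicate supplied 1 well of every group, so that the replicate number links arrays across the media. Total RNA was measured on 18 single-color bead arrays with 45281 probes.

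The study's methods name the ES cells as knock-in cells in which the τ promoter drives EGFP, maintained on embryonic fibroblasts with LIF before the co-culture, and PA6 as an established murine stromal line, so each cell type stands for 1 line. All groups lacked serum, and the co-cultures hold RNA of both cell types in unknown proportions. In such bulk samples fewer cells of a type and less RNA per cell cannot be told apart. The BMP4 dose is that of the array labels. The methods give a lower dose for the co-cultures on slides.

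Between 19365 and 20412 probes were detected on each co-culture array (detection p under 0.05) and between 17125 and 18391 on each PA6 array. Of 10 markers of pluripotent cells, all were detected on every array of the -GFs co-cultures, and 8, among them NANOG, SOX2 and ZFP42, on no array of the matching PA6 cultures. POU5F1 was detected on all 3 of those PA6 arrays and DPPA5A on 1. Of 8 stromal markers, all were detected in PA6 cultures in -GFs medium and all but POSTN in the matching co-cultures.

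The genes lie on 4 chromosomes of the mouse genome in the RefSeq annotation of build GRCm38.p6, since the array files name no build. NODAL spans positions 61417972 to 61425338 of chromosome 10, GDF3 122605403 to 122610087 of chromosome 6, and TDGF1 110939608 to 110946158 of chromosome 9. The inhibitors are neighbors on chromosome 1, with LEFTY2 at 180893108 to 180899107 and LEFTY1 at 180935022 to 180938401. The RefSeq promoter table held 2 of the 5 genes, NODAL and TDGF1. These promoters, of the ligand and of its co-receptor, are shown for that reason. Each is the 250 bases that end just before the transcription start, read 5′ to 3′ on the strand of the gene, chr10:61417722-61417971 on the plus strand for NODAL and chr9:110946159-110946408 on the minus strand for TDGF1. Capitals mark the longest exact repeat in the TDGF1 sequence.
NODAL: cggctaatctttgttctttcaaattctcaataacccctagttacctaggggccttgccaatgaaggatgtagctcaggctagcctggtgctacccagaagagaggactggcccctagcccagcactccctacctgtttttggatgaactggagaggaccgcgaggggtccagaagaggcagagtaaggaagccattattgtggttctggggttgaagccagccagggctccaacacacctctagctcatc
TDGF1: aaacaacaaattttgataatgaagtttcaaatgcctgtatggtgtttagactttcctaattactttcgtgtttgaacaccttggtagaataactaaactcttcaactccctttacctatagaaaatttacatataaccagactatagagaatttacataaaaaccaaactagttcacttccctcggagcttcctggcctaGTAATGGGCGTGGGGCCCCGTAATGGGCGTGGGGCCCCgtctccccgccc
In the TDGF1 promoter a stretch of 19 bases occurred back to back, the copies starting 50 and 31 bases before the start, and 1.23% of the 32851 promoters of this length in the table held an exact direct repeat at least as long. The longest repeat in the NODAL promoter had 9 bases. Both strands were searched for the FOXH1 motifs AATCCAC and AATACAC, the SMAD motif CAGACA and the octamer TGCAAAT of POU factors, none of which contains another. None of the 4 was present in either window, and they occurred in 2.1%, 2.05%, 17.1% and 3.56% of all promoters, respectively. GC content was 53.2% for NODAL and 42% for TDGF1, beside a median of 52.4%.

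All 6 probes were detected on each of the 9 co-culture arrays and on none of the 9 arrays of pure PA6 cultures. They passed the filter on dim probes through the co-culture arrays alone, so their difference between culture types follows from that and is given as a description. Levels are log2 normalized intensities, and levels of different probes are not comparable with each other. In PA6 cultures the level ranged from 4.96 to 6.10 for NODAL, from 5.11 to 5.78 for GDF3, from 4.90 to 5.28 for TDGF1, from 4.91 to 5.37 for LEFTY1 and from 4.77 to 5.21 for LEFTY2. On the co-culture arrays the lowest values were 11.78, 12.21, 9.29, 9.48 and 8.17, in the same order, so that no array of one culture type reached the other.

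**Figure D1:**
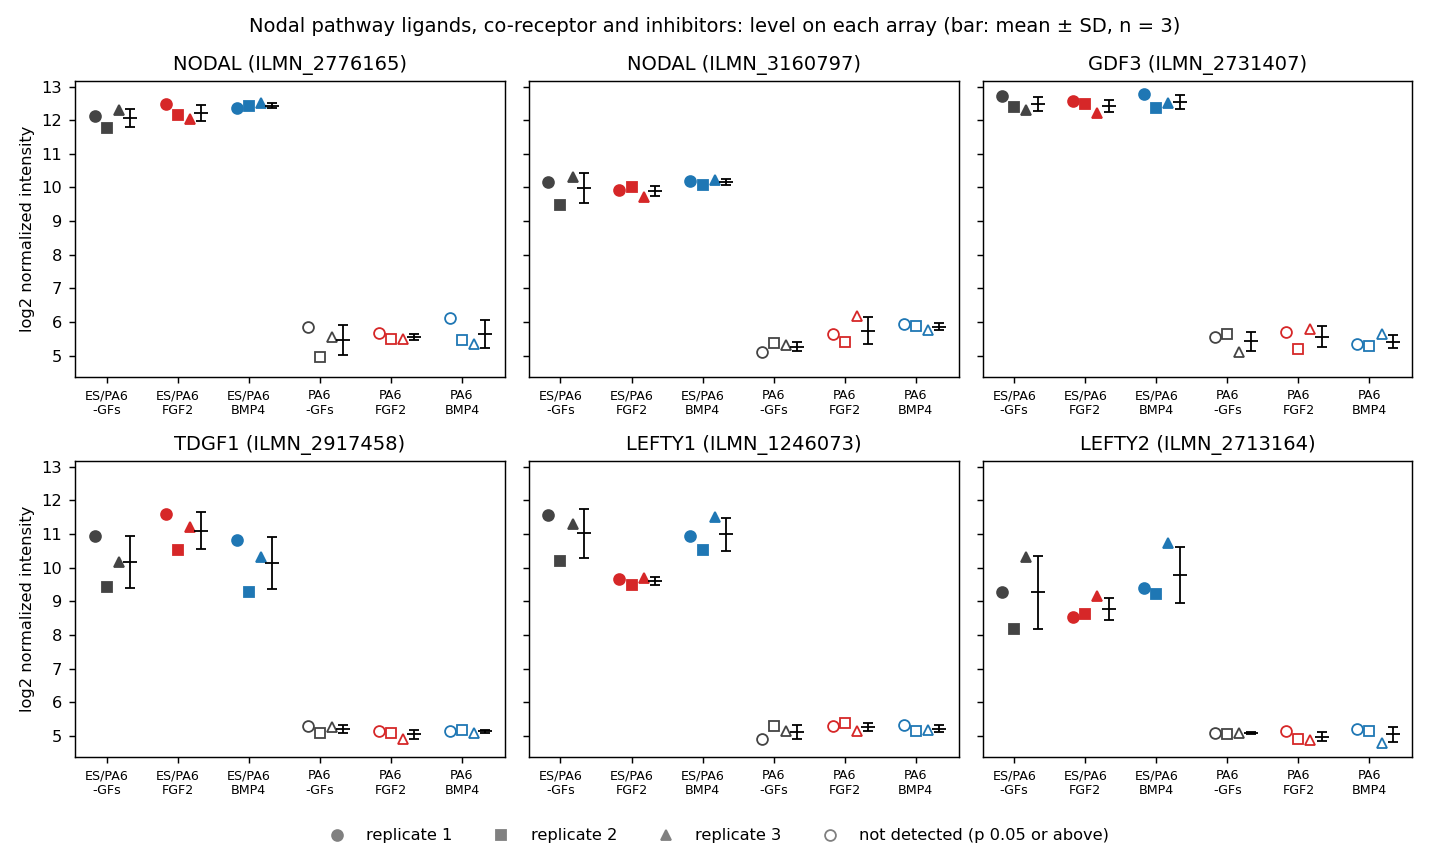
Log2 normalized intensity (y axis) of the 6 probes in the 6 groups (x axis), 1 point per array, with the mean ± SD of 3 arrays beside them and open symbols where the probe was not detected. All 9 co-culture arrays lie at 8.17 or higher and all 9 PA6 arrays at 6.18 or lower.

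Since PA6 signals were not above background, the difference between culture types is a lower bound. In -GFs medium the co-cultures exceeded PA6 cultures at least 54.8-fold for NODAL, at least 72.8-fold for GDF3, at least 14.7-fold for TDGF1, at least 26.4-fold for LEFTY1 and at least 7.80-fold for LEFTY2. With FGF2 these bounds were 62.1, 71.3, 28.7, 10.2 and 5.71, and with BMP4 75.4, 81.7, 15.4, 27.8 and 12.1. Since the filter fixed this difference, no test of it is given. In PA6 cultures changes with FGF2 or BMP4 could not be measured for the 5 genes, whose signals there were background.

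The ligands were the steadiest of the 5 genes across media. NODAL, read by its brighter probe, was at 12.14, 11.78 and 12.31 on the -GFs arrays of replicates 1, 2 and 3. With FGF2 it was at 12.48, 12.15 and 12.02, and with BMP4 at 12.36, 12.43 and 12.50. The FGF2 and -GFs values overlapped, whereas the lowest BMP4 value stood just above the highest -GFs value.

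The NODAL means were 12.07 ± 0.271 (SD, n = 3) in -GFs, 12.22 ± 0.236 with FGF2 and 12.43 ± 0.072 with BMP4. FGF2 differed from -GFs by a log2 change of 0.14 ± 0.22 (SE, adjusted p = 0.837 by limma), with a 95% interval from -0.33 to 0.62. BMP4 differed by 0.35 ± 0.22 (adjusted p = 0.66), with an interval from -0.12 to 0.83. Of all genes tested, 6.06% had BMP4 values wholly above those of -GFs. The other NODAL probe gave log2 changes of -0.09 with FGF2 and 0.18 with BMP4, and there the BMP4 and -GFs values overlapped.

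GDF3, a ligand of the same superfamily that is a marker of undifferentiated ES cells, was at 12.73, 12.41 and 12.32 in -GFs. It was at 12.57, 12.47 and 12.21 with FGF2 and at 12.77, 12.37 and 12.50 with BMP4, so that the groups overlapped throughout. The group means were 12.48 ± 0.216, 12.42 ± 0.188 and 12.55 ± 0.203 (SD, n = 3). The log2 change was -0.07 ± 0.19 with FGF2 (interval -0.46 to 0.33, adjusted p = 0.918) and 0.06 ± 0.19 with BMP4 (interval -0.34 to 0.46, adjusted p = 0.969). For both ligands the intervals exclude a change of 2-fold in either direction.

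TDGF1, which encodes the co-receptor Cripto, was at 10.95, 9.41 and 10.16 on the -GFs arrays of replicates 1, 2 and 3. It was at 11.59, 10.52 and 11.21 with FGF2 and at 10.82, 9.29 and 10.31 with BMP4. Replicate 1 was the highest and replicate 2 the lowest in each medium, and the FGF2 and -GFs values overlapped. Within each replicate experiment, however, the FGF2 array was above the -GFs array, by 0.64, 1.11 and 1.05 on the log2 scale, which 21.2% of all genes shared. It was also above the BMP4 array, by 0.77, 1.23 and 0.90, which 22.5% of all genes shared.

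The TDGF1 means were 10.17 ± 0.769 (SD, n = 3) in -GFs, 11.11 ± 0.542 with FGF2 and 10.14 ± 0.779 with BMP4. The log2 change with FGF2 was 0.93 ± 0.37 (SE, interval 0.15 to 1.71), and it did not pass (adjusted p = 0.176 by limma). Blocked on the replicate number, the same change had a SE of 0.12 and an adjusted p of 0.000398, but stayed under the fold threshold. Leaving out the -GFs array of replicate 1 raised the change to 1.32 (adjusted p = 0.0418) and leaving out the FGF2 array of replicate 2 to 1.22 (adjusted p = 0.095), both past the thresholds. Other omissions lowered it. Over all omissions of 1 array the change ran from 0.55 to 1.32 against -GFs and from 0.54 to 1.31 against BMP4. Against BMP4 the change with FGF2 was 0.97 ± 0.37 (adjusted p = 0.168, and 0.000366 with the block, again under the fold threshold). It passed without the FGF2 array of replicate 2 (1.26, adjusted p = 0.0998) or the BMP4 array of replicate 1 (1.31, adjusted p = 0.0644). The fits that passed did not match arrays by replicate. The arrays they left out were the highest of -GFs, the lowest of FGF2 and the highest of BMP4, which by itself widens an unmatched difference. With BMP4 against -GFs the change was -0.03 ± 0.37 (adjusted p = 0.992).

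**Figure D2:**
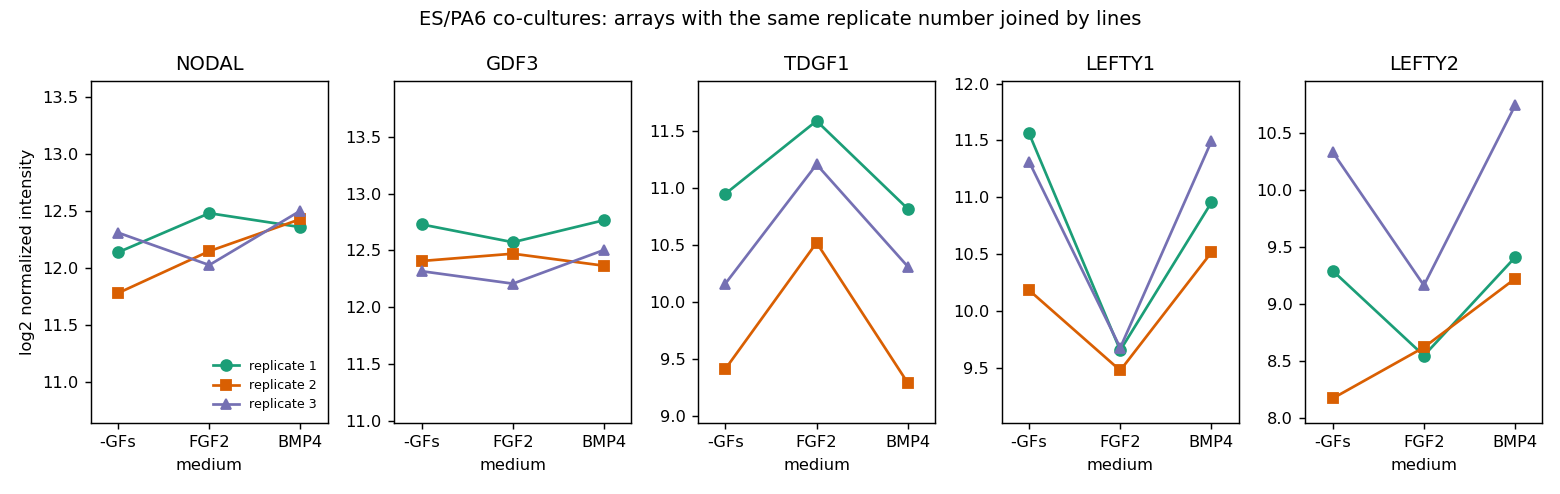
Log2 normalized intensity (y axis, 3 units high in every panel) of the 5 genes on the 9 co-culture arrays by medium (x axis), with lines that join arrays of the same replicate number. LEFTY1 was lowest and TDGF1 highest with FGF2 in all 3 replicates, whereas the NODAL lines cross.

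LEFTY1, a secreted inhibitor of Nodal, was the one gene of the 5 that was called with FGF2. It was at 11.56, 10.19 and 11.31 in -GFs, at 9.66, 9.48 and 9.68 with FGF2, and at 10.96, 10.52 and 11.49 with BMP4, for replicates 1, 2 and 3. All 3 FGF2 arrays were below all -GFs and BMP4 arrays, and they lay within 0.20 of each other, whereas the -GFs arrays spread over 1.38. Replicate 2 had the lowest value in each medium.

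The LEFTY1 means were 11.02 ± 0.734 (SD, n = 3) in -GFs, 9.61 ± 0.109 with FGF2 and 10.99 ± 0.489 with BMP4. It was lower with FGF2 by a log2 change of -1.41 ± 0.28 (SE, interval -2.01 to -0.82, adjusted p = 0.00583 by limma), which corresponds to the 2.67-fold given above. Within the replicate experiments the change was -1.90, -0.70 and -1.63. LEFTY1 was thus 1 of 5 genes called with FGF2, against 3.34% of all 16446 genes called in either direction and 1.2% called lower, and 9.43% of all genes had FGF2 values wholly below those of -GFs. Against BMP4 it was lower by a log2 change of -1.38 ± 0.28 (adjusted p = 0.00816), while BMP4 and -GFs differed by -0.03 ± 0.28 (interval -0.63 to 0.57, adjusted p = 0.99).

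LEFTY2, the other Lefty inhibitor, was at 9.29, 8.17 and 10.33 in -GFs, at 8.54, 8.62 and 9.16 with FGF2, and at 9.41, 9.22 and 10.74 with BMP4. FGF2 values overlapped with -GFs and were all below BMP4, if narrowly. In contrast to LEFTY1, the change with FGF2 did not run one way, being -0.75, 0.45 and -1.17 in replicates 1, 2 and 3.

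The LEFTY2 means were 9.26 ± 1.08 (SD, n = 3) in -GFs, 8.77 ± 0.337 with FGF2 and 9.79 ± 0.829 with BMP4. The log2 change was -0.49 ± 0.42 with FGF2 (interval -1.39 to 0.41, adjusted p = 0.638) and 0.53 ± 0.42 with BMP4 (interval -0.37 to 1.43, adjusted p = 0.772). FGF2 against BMP4 gave -1.02 ± 0.42 (adjusted p = 0.217), a difference that was called with the replicate block (SE 0.23, adjusted p = 0.0162), as were 3.27% of all genes. The blocked call was lost without replicate 1 (adjusted p = 0.101) or replicate 3 (adjusted p = 0.172). It was below 0 in all 3 replicate experiments, at -0.86, -0.60 and -1.58, as in 21.3% of all genes, and 9.1% of all genes had FGF2 values wholly below those of BMP4. Whether LEFTY1 and LEFTY2 differed from each other in response was not tested.

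**Figure D3:**
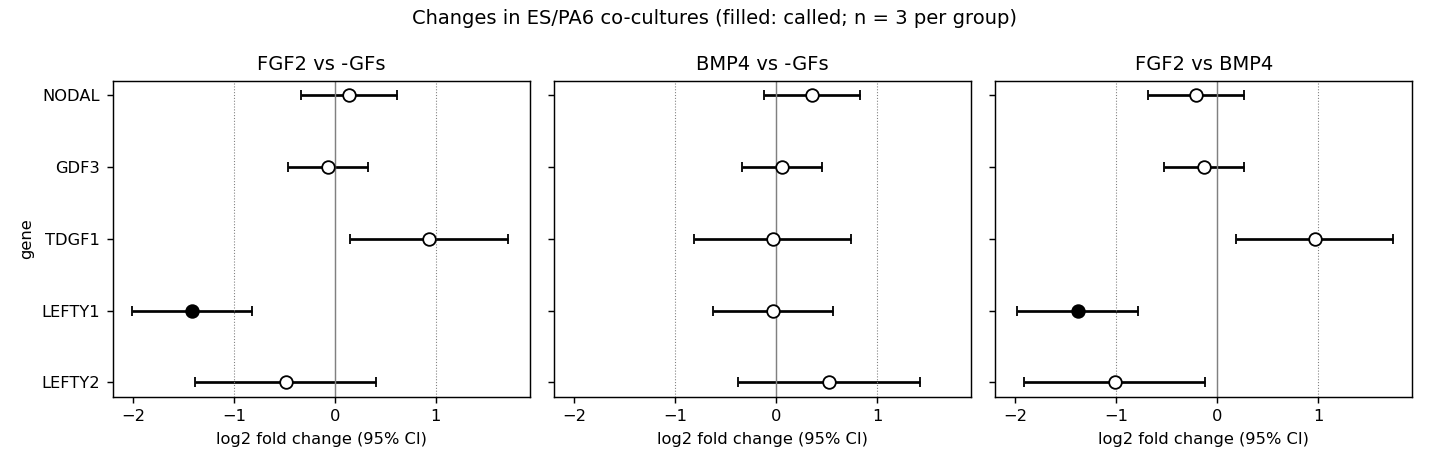
Log2 fold changes with 95% confidence intervals (x axis) of the 5 genes (y axis) for FGF2 against -GFs, BMP4 against -GFs and FGF2 against BMP4 in co-cultures, 3 arrays per group. Filled points passed adjusted p under 0.1 and a log2 change over 1, dotted lines mark a log2 change of 1, and LEFTY1 is the filled gene in both comparisons with FGF2.

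FGF2 and BMP4 were compared with the same -GFs arrays, so their changes share that control. With BMP4 none of the 5 genes was called, against 0.76% of all genes, and none had an unadjusted p under 0.05 without the replicate block. With the block LEFTY2 did, with changes of 0.12, 1.05 and 0.41 in replicates 1, 2 and 3, and its adjusted p was 0.288. Its 95% interval lay above 0 (0.02 to 1.04), but the spread behind that interval was pooled with PA6 arrays at background. The interval therefore does not rest on co-cultures alone. Between FGF2 and BMP4, LEFTY1 alone was called without the block, against 2.85% of all genes, 1.03% being lower with FGF2. Whether the effect of FGF2 on these genes differed between culture types could not be tested, since none of them was detected on a PA6 array.

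The wider pathway was read from a list of 38 genes that contains the 5, of which 27 could be tested. With FGF2, 1 of the 27 rose and 3 fell in co-cultures, LEFTY1 included. Of all genes, 3.34% were called with FGF2 and 1.2% were called lower. The median log2 change of the 27 was 0.04 beside -0.01 over all genes. With BMP4 none passed, against 0.76% of all genes, with a median of -0.01 beside -0.0035 over all genes. A dimmer probe of the target gene PMEPA1, detected on all 3 BMP4 arrays and no -GFs array, did pass with BMP4 among all probes (at least 1.58-fold higher, adjusted p = 0.0375), whereas its brighter probe had a log2 change of 0.28. Between FGF2 and BMP4, 1 was higher with FGF2 and 2 were lower, against 2.85% of all genes called and 1.03% called lower. With the replicate block these counts became 1 and 4 for FGF2, 1 and 0 for BMP4, and 2 and 5 between FGF2 and BMP4. The added genes were INHBA, T, LHX1 and LEFTY2. Of all genes, 3.27% were called with the block between FGF2 and BMP4. That share is not given for FGF2 or BMP4 against -GFs, so the blocked counts there cannot be read as more or fewer than among all genes. 3 genes beside LEFTY1 account for the calls without the block, GSC, FOXH1 and GDF1. The co-receptor CFC1, the receptor ACVR1C, the inhibitors CER1 and DAND5, SMAD7 and the targets EOMES, MIXL1 and FOXA2 were detected on no array.

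GSC encodes goosecoid, a homeobox factor of the anterior primitive streak and a classical target of Nodal and activin. It was at 6.32, 5.46 and 7.53 in -GFs, at 7.84, 7.73 and 8.38 with FGF2 and at 6.32, 5.92 and 7.001 with BMP4. It rose by 1.54 ± 0.37 over -GFs (SE, adjusted p = 0.0182 by limma) and by 1.57 ± 0.37 over BMP4 (adjusted p = 0.0202). Of the -GFs and BMP4 arrays, 2 of 3 detected GSC. When only co-culture arrays were fitted, neither rise passed (adjusted p = 0.136 and 0.148), and without BMP4 replicate 2 the rise over BMP4 did not (adjusted p = 0.102). With quantile normalization alone or a cubic spline the rise over -GFs was 0.91 and 0.88, below the fold threshold, as was that over BMP4, at 0.94 and 0.91.

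FOXH1, the DNA-binding partner of SMAD2 and SMAD3, was at 8.27, 8.12 and 7.79 in -GFs, at 6.73, 7.05 and 7.05 with FGF2 and at 8.14, 8.15 and 7.85 with BMP4. FGF2 arrays were below all others. Of all genes, 9.43% had FGF2 values wholly below those of -GFs and 9.1% wholly below those of BMP4. FOXH1 fell by 1.12 on the log2 scale against -GFs (SE 0.15, adjusted p = 0.000327 by limma), and its log2 change against BMP4 was -1.10 ± 0.15 (adjusted p = 0.000485). Its other probe gave -0.78 against -GFs (adjusted p = 0.0241), below the fold threshold, and -1.04 against BMP4 (adjusted p = 0.0051), past it. With other normalizations the change against -GFs was between -0.995 and -0.68 and that against BMP4 between -0.992 and -0.67, again below that threshold, and without FGF2 replicate 1 the change against BMP4 was -0.996.

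GDF1, a ligand that partners with Nodal, was at 9.62, 9.78 and 9.63 in -GFs, at 8.44, 8.13 and 8.35 with FGF2 and at 8.86, 8.83 and 9.10 with BMP4. It fell by 1.37 on the log2 scale with FGF2 (SE 0.13, adjusted p = 6.97e-06 by limma). GDF1 also had -0.75 with BMP4 (adjusted p = 0.012) and -0.62 with FGF2 against BMP4 (adjusted p = 0.00832), both under the fold threshold. Unlike the 5 genes above it was detected in PA6 cultures, where its mean was 9.60 ± 0.120 (SD, n = 3) in -GFs, 0.08 below the co-cultures on the log2 scale (adjusted p = 0.614 by limma), and where it fell with FGF2 too, with a log2 change of -1.07 (adjusted p = 2.7e-05). GDF1 is known to share a transcript with the ceramide synthase gene CERS1, and whether the probe also reads that gene was not tested.

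**Figure D4:**
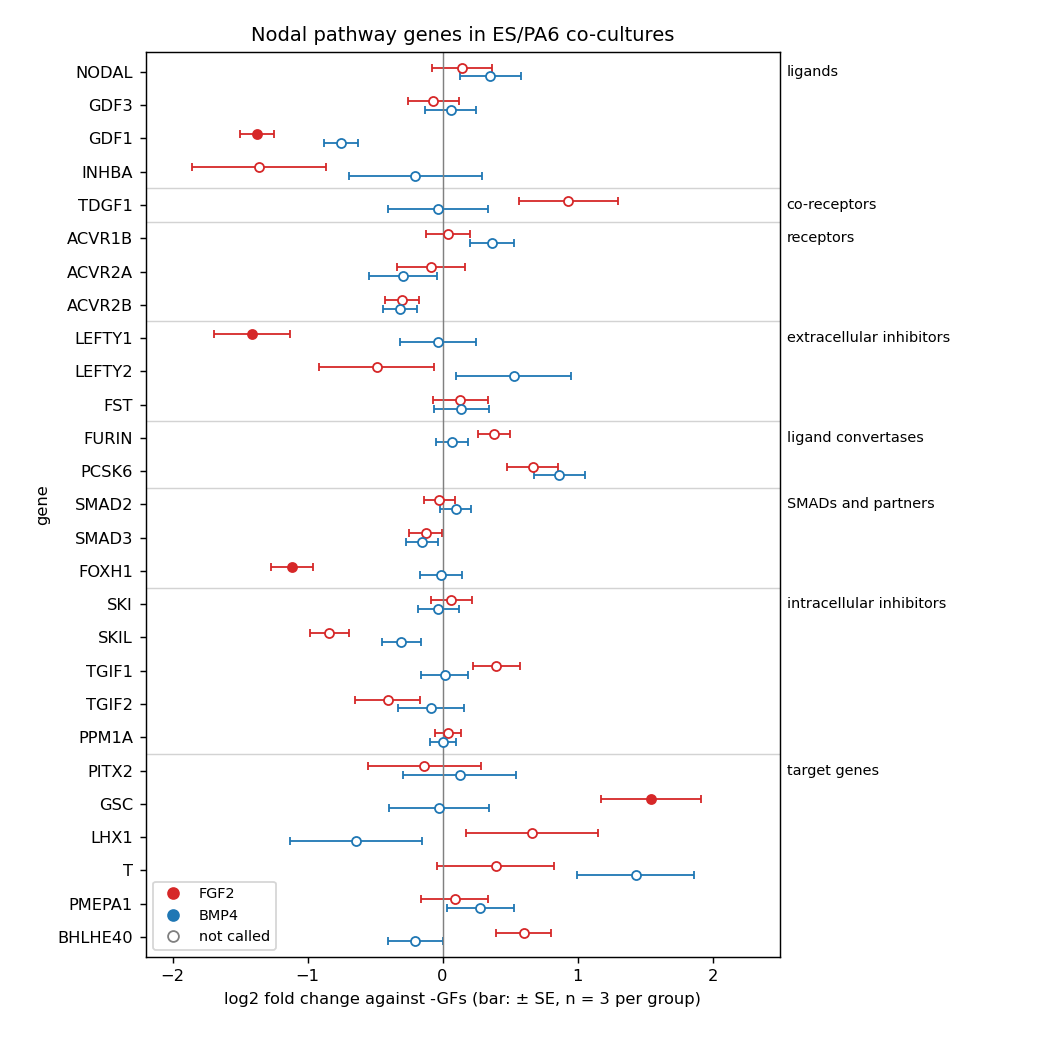
Log2 fold change against -GFs (x axis, ± SE, 3 arrays per group) of the 27 tested genes of the pathway list (y axis, grouped by role) with FGF2 (red) and BMP4 (blue) in co-cultures. Filled points were called, and these are LEFTY1, FOXH1 and GDF1 to the left and GSC to the right, all with FGF2.

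By role, 1 of 4 ligands, 1 of 3 extracellular inhibitors, and 1 of 3 SMADs and partners fell with FGF2. Of 6 targets 1 rose, and no call was made among 3 receptors, 2 convertases and 5 intracellular inhibitors. Beside these counts, 3.34% of all genes were called with FGF2 and 1.2% were called lower. SMAD2 and SMAD3 had log2 changes of -0.02 and -0.13 with FGF2, and the type I receptor ACVR1B 0.04 in co-cultures. In PA6 cultures ACVR1B rose with FGF2 by 1.48 on the log2 scale (adjusted p = 1.24e-05), and its change in co-cultures minus that in PA6 cultures was -1.44 (adjusted p = 0.00091). The dimmer ACVR1B probe, detected on 2 of 3 FGF2 and 1 of 3 -GFs arrays of PA6, had 0.43 there (adjusted p = 0.406 by limma among all probes). INHBA, which encodes an activin subunit, had a log2 change of -1.36 with FGF2 (adjusted p = 0.133, and 0.00334 with the replicate block, which gives a call), and -1.16 against BMP4 (adjusted p = 0.231, and 0.01 with the block, again a call). LHX1, a homeobox gene of the streak and its derivatives, was detected on 2 of 3 FGF2 arrays and no BMP4 array, and FGF2 exceeded BMP4 at least 1.62-fold (adjusted p = 0.159, and 0.0105 with the block, a call). SKIL, a repressor of SMAD activity, had -0.84 with FGF2 against -GFs (adjusted p = 0.00197), under the fold threshold. Its dimmer probe passed in the same comparison with -1.20 (adjusted p = 0.0161 among all probes). PCSK6, a convertase that cleaves the Nodal precursor, had 0.67 with FGF2 (adjusted p = 0.0462) and 0.86 with BMP4 (adjusted p = 0.0458), both under the fold threshold. The dimmer PCSK6 probe had -0.21 and 0.03 (adjusted p = 0.779 and 0.99 by limma among all probes). T, the streak gene brachyury, had 1.43 with BMP4 (adjusted p = 0.157, and 0.00171 with the block, which gives a call) and with FGF2 against BMP4 -1.04 (adjusted p = 0.217, and 0.00288 with the block, a call).

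Markers of the cells in culture moved with FGF2 as well, beside 3.34% of all genes called and 1.2% called lower. Of 10 pluripotency markers 3 rose (NANOG by 1.25, ZFP42 by 1.19 and ESRRB by 1.58 on the log2 scale) and 1 fell (LIN28, log2 change -1.63), while POU5F1 and SOX2 had -0.10 and 0.45 and were not called. Their summed intensity ranged from 100732 to 127804 in -GFs and from 133286 to 149416 with FGF2. All 4 markers of primed epiblast fell, with log2 changes of -4.17 for FGF5, -2.51 for OTX2, -3.01 for POU3F1 and -2.201 for DNMT3B, and their sum ranged from 47192 to 60978 in -GFs and from 10591 to 10993 with FGF2. Of 8 stromal markers 1 fell, THY1 (log2 change -1.08), with sums of 50843 to 59900 in -GFs and 35540 to 47207 with FGF2. LUM, of the same list, had -1.41 (adjusted p = 0.263, and 0.0192 with the replicate block, which gives a call). No marker of neural cells, endothelium, endoderm or mesoderm was called with FGF2 (2, 4, 3 and 2 tested). The part of these shifts in the fall of LEFTY1, FOXH1 and GDF1 and in the rise of GSC was not tested.

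Likeness was measured as Pearson's r over the 9 co-culture arrays among 1034 genes that were detected on all of them and varied by a SD of at least 0.5. Arrays of a medium share their treatment and arrays of a replicate their experiment, so r is a description. The like genes were picked on the same arrays, so their changes between media follow in part from that choice. LEFTY1 was most like TDRD12 (r = 0.947), DUSP3 (0.933) and FADS2 (0.930). With FGF2 their log2 changes were -0.97, -1.41 and -1.002, DUSP3 and FADS2 being called and TDRD12 staying under the fold threshold. TDGF1 was most like C330048F19 (0.962), PKD2L1 (0.956) and CPN1 (0.939), none of which was called with FGF2. LEFTY2 was most like GCHFR (0.897), ESAM (0.883) and DPPA3 (0.880). NODAL was most like PHF19 (0.949), PECAM1 (0.830) and ELF3 (0.825), the last of which rose with BMP4 as did PECAM1 (log2 changes of 1.07 and 1.17, adjusted p = 0.00498 and 0.0994). GDF3 varied least, with a SD of 0.184, and its nearest genes were UBE2Z (0.873), SLC3A2 (0.830) and 1200009F10RIK (0.819).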

How the data were processed

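Total RNA of 18 cultures was hybridized to MouseWG-6 v2.0 BeadChips. The authors deposited probe intensities as exported from GenomeStudio (version 2011.01 per the labels), not background-corrected or log-transformed, with a detection p-value for each probe and array, and no aligner or genome build applies. 5 lines were shifted in the table and were left out. Intensities were background-corrected with the detection p-values, quantile-normalized and log2-transformed (neqc of limma 3.58.1 in R 4.3.3, offset 16). The study's methods name cubic spline normalization, which was run as an alternative. Probes with detection p under 0.05 on at least 3 of 18 arrays were kept (22987 of 45281), and the brightest kept probe stood for a gene (16446 genes). One limma model of the 6 group means gave 10 comparisons, with p-values adjusted by Benjamini-Hochberg over all genes. A gene was called at adjusted p under 0.1 and an absolute log2 change over 1, and "rose" and "fell" refer to calls.

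A lower bound set the mean level of the detected group against, per array, the lowest signal of a detected probe. Replicate numbers pair the arrays, since the growth and treatment notes give each biological replicate a well of every group. In co-cultures the deviations from the group means of same-numbered arrays correlated at 0.33 to 0.52, and in PA6 cultures at 0.06 to 0.16. The fit with the replicate as a block within each culture type is quoted where it changes a call among the genes and comparisons given above.

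The genes, the pathway list and the marker lists were chosen with earlier results of these data known. Named beside the 5 genes are pathway genes called in co-cultures, direct partners, marker genes, and the 3 genes most like each. INHBB, SMAD4 and DRAP1 had no probe under those names, and BHLHE40 and DPPA5A were read under the older names BHLHB2 and DPPA5. Promoters, gene positions and older names came from RefSeq tables of GRCm38.p6. Alternatives were other normalizations, filters, variance models, thresholds and the omission of each array. The fits were tested on simulated data. The number of arrays limits the precision. The p-values measure a spread pooled over all 18 arrays, so PA6 arrays at background enter the SEs and intervals given for co-cultures. In -GFs medium the SDs in PA6 and co-cultures were 0.120 and 0.769 for TDGF1, 0.198 and 0.734 for LEFTY1, and 0.022 and 1.08 for LEFTY2. The SEs of these genes are thus not those of co-cultures alone and may be too small. NODAL (0.447 and 0.271) and GDF3 (0.282 and 0.216) went the other way. Fitted on co-culture arrays alone, LEFTY1 kept its call with FGF2.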

Additional observations from a re-analysis of the deposited data

Results flagged for a closer look

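1 value was singled out because the effect of FGF2 in co-cultures minus that in PA6 cultures passed a test across the 18 arrays. For LEFTY1 it was -1.57 ± 0.40 on the log2 scale (SE, adjusted p = 0.0195 by limma, n = 3 per group), from changes of -1.41 in co-cultures and 0.15 in PA6 cultures. LEFTY1 was detected on no PA6 array, so the value restates the change in co-cultures against background signal and does not show that the effect differed in PA6 cells.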

How the results depend on the processing

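LEFTY1 kept its call with FGF2 in co-cultures in all 35 alternatives (log2 change from -1.83 to -1.14, adjusted p from 0.000185 to 0.0717), as it did against BMP4 in 35 (-1.62 to -1.13, up to 0.0958). None of the 5 genes was called between BMP4 and -GFs in any alternative. Comparisons with PA6 cultures, where the 5 genes were not detected, say nothing about stability. With the replicate block, the number of the 5 genes called between FGF2 and BMP4 in co-cultures rose from 1 to 2 by LEFTY2, and that for the FGF2 effect between culture types from 1 to 2 by TDGF1, and the block changed no other call of the 5 genes. The other alternatives with the block were chosen after seeing the data. Without the fold threshold these counts were 3 and 2, and that for FGF2 against -GFs 2. With a replicate number left out of the blocked fit, some counts were again 2, but not always by the same gene. Without replicate 1 this held for all 3 comparisons, each by TDGF1 (log2 change 1.08 against -GFs and 1.06 against BMP4). Without replicate 2 it held for FGF2 against BMP4 by LEFTY2 and for the FGF2 effect by TDGF1. Without replicate 3 it held for FGF2 against BMP4 by TDGF1 (1.001). Leaving out 1 array at a time gave counts from 1 to 2 in each of the 3 comparisons, TDGF1 being the gene added, without -GFs replicate 1, FGF2 replicate 2 or BMP4 replicate 1.

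The signs that turned belonged to changes that were not called, and the cause was not tested. Those of LEFTY2, -0.49 with FGF2 and 0.53 with BMP4, each turned when 1 array was left out. With median scaling GDF3 changed by 0.042 with FGF2 and by 0.029 against BMP4. With array weights the BMP4 changes were 0.028 for LEFTY1 and 0.082 for TDGF1. In blocked fits without replicate 1 they were 0.26 and 0.013, without replicate 2 0.0092 for TDGF1, and without replicate 3 -0.0022 for GDF3. Leaving out 1 array gave ranges with FGF2 of -0.0056 to 0.26 for NODAL, -1.04 to 0.045 for LEFTY2 and -0.15 to 0.055 for GDF3. With BMP4 they were -0.45 to 0.24 for LEFTY1, -0.021 to 1.06 for LEFTY2, -0.42 to 0.39 for TDGF1 and -0.049 to 0.18 for GDF3. PA6 signals of the 5 genes were not above background, so changes in PA6 cells below that level could not be seen. Apart from these calls and signs, the alternatives kept the direction and side of the threshold for the 5 genes in co-cultures.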
